A study of Mus musculus with 2 samples.

Results

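Mir122 and Mir802 are the miRNA genes known as markers of hepatocytes, the parenchymal cells of the liver. Both were taken by name from 1973 annotated miRNA genes counted in fetal mouse liver, and both had counts in each library. The series holds 1 group of 2 microRNA-sequencing libraries of small RNA under 30 nucleotides. Each was made from a pool of healthy livers of strain B6NCrl, male and female embryos together, at embryonic day 15.5. Replicate 1 pooled 78 embryos and replicate 2 pooled 62. No treatment, mutant or other age is included, so the comparisons are between these genes, with other miRNA genes, and between the libraries. A pool averages its embryos, and the spread between the libraries covers pools and library making. In whole tissue, fewer hepatocytes and less miRNA per hepatocyte cannot be told apart.

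A miRNA gene is transcribed as a long precursor, cut to a hairpin and then to a short RNA that guides Argonaute to messages matching its seed, bases 2 to 8. Mir122 is the most abundant miRNA of adult hepatocytes. Its transcription depends on liver-enriched factors such as Hnf4a, it represses messages such as Aldoa and Slc7a1, and mice without it develop fatty liver and liver tumours. Mir802 is made in mouse liver and also in gut, pancreas and kidney. In obese mice its liver level is raised.

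The Mir802 products are printed here because their gene carries the difference between the libraries described below. RefSeq sequences on GRCm38.p6 were matched for 10 of 11 genes, Mir802 and the 9 genes of a list of other liver-linked miRNAs, and none for Mir122. Capitals mark the seed in the mature forms and both mature arms in the hairpin, all 5′ to 3′. Mature forms of Mir192, Mir194-2 and Mir148a, which regulate genes of liver and gut, follow for comparison.
mmu-miR-802-5p: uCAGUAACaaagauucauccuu
mmu-miR-802-3p: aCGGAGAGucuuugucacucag
Mir802 hairpin: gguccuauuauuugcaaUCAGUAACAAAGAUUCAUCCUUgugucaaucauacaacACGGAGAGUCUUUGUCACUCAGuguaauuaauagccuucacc
mmu-miR-192-5p: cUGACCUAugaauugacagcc
mmu-miR-194-5p: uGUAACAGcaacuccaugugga
mmu-miR-148a-3p: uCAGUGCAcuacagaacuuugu
Neither arm of Mir802 shared its seed with any other gene among 1738 mature entries of 1058 genes, whereas 43.0% of those genes share a seed with another. No other gene in that table has the same mature sequence as either arm. By contrast the 5p form of Mir194-2 is identical to that of Mir194-1, so reads that fit both were left out of the counts. In a predicted fold of the hairpin (minimum free energy -30.8 kcal/mol), 16 of the 22 bases of the 5p arm paired with the 3p arm. The counts are per gene and do not show which arm was sequenced.

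Mir802 (ENSMUSG00000076457.1) lies on chromosome 16 at 93369720 to 93369816, plus strand, GRCm38. No other annotated gene overlaps it. The long noncoding RNA 1810044K17Rik ends 691 bases before it on the same strand, and 1700029J03Rik, on the minus strand, begins 21861 bases beyond it. Mir122 (ENSMUSG00000065402.1) lies on chromosome 18 at 65248861 to 65248926, plus strand, within an exon of AC157910.3, a long noncoding RNA. RefSeq also annotates Mir122b across it, at 65248863 to 65248921. The strand opposite to Mir122 held 2 counts in replicate 1 and 3 in replicate 2, and the strand opposite to Mir802 held 0 in both.

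Mir122 was the most abundant miRNA gene in both libraries, by reads assigned to 1 gene. It had 1008169 of 5529166 sense counts in replicate 1 and 534888 of 3169882 in replicate 2. Sense counts are reads on the gene's own strand, and CPM gives them per 1000000 sense miRNA counts of the same library. Its level was 182337 CPM (exact Clopper-Pearson 95% interval 182015 to 182659) in replicate 1 and 168741 CPM (168329 to 169153) in replicate 2. The mean was 17.6% ± 0.961 of sense counts (SD, n = 2). It was 3.42 times Mirlet7g, of the let-7 family that marks differentiated cells, in replicate 1 and 2.93 times in replicate 2. Mirlet7g was at rank 2 in both libraries. Mir126a, an endothelial miRNA, was at rank 3 and Mir26b at rank 4 in replicate 1, and they changed places in replicate 2. These shares, ranks and multiples leave out reads mapping to several places, 29.3% of reads in replicate 1 and 31.1% in replicate 2. Genes with shared mature sequences are lowered by this.

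Mir802 was low in both libraries and differed strongly between them. It had 140 sense counts in replicate 1 and 6 in replicate 2. This came to 25.3 CPM (exact 95% interval 21.3 to 29.9) in replicate 1 and 1.89 CPM (0.695 to 4.12) in replicate 2, intervals that do not overlap. A count of 0 would allow up to 3 counts, which is 0.543 CPM at the depth of replicate 1 and 0.946 CPM at that of replicate 2. Both values lay above that limit, but the interval of replicate 2 reached down to 0.695 CPM, below it. Its rank by level was 241 of 645 genes with a count in replicate 1 and 390 of 605 in replicate 2, a rank shared by 24 genes with 6 counts. At the depth of replicate 2, the level of replicate 1 would have given 80.3 counts. The mean of 13.6 ± 16.6 CPM (SD, n = 2) has an SD larger than itself, so the mean describes neither library. These intervals cover counting error only. Each comes from 1 library, so they leave out the spread between pools. They also take reads as independent, which amplified reads may not be.

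**Figure D1:**
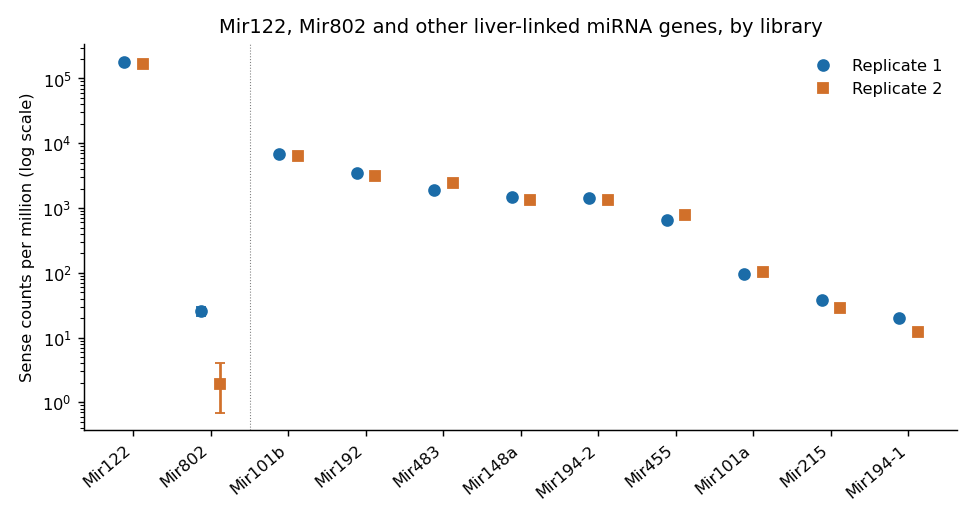
Sense CPM on a log axis for Mir122, Mir802 and the 9 genes of the other liver-linked list, with circles for replicate 1 and squares for replicate 2. Bars on Mir122 and Mir802 are exact 95% intervals, and those of Mir122 are smaller than its points. Mir802 is at 25.3 CPM in replicate 1 and at 1.89 CPM in replicate 2, while both points of every other gene lie close together.

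**Figure D2:**
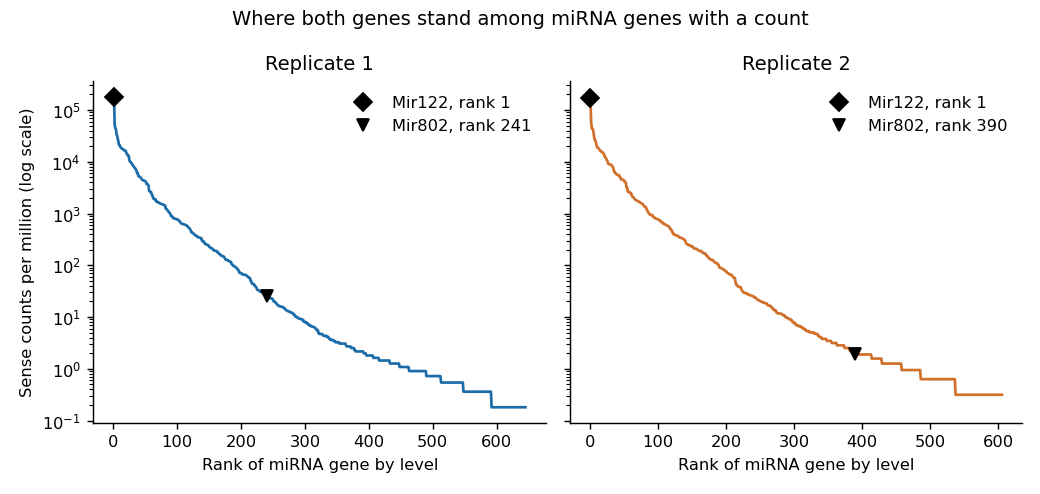
Level against rank for every miRNA gene with at least 1 sense count, replicate 1 on the left and replicate 2 on the right, with a log level axis. Mir122 is at rank 1 in both, and Mir802 is at rank 241 in replicate 1 and 390 in replicate 2.

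Each gene was compared between the libraries by an exact binomial test on TMM-scaled library sizes, for 456 genes with at least 10 counts summed. The test covers counting error and compares 2 libraries, not conditions. Past a Benjamini-Hochberg adjusted p of 0.05 it called 176 genes, 38.6% of those tested, so a call by itself is common. Of these, 90 (19.7%) were higher and 86 (18.9%) lower in replicate 1. A negative binomial exact test in edgeR, which adds a spread between libraries of 14.7% (biological coefficient of variation) estimated over all genes, called 4 genes, 0.877% of those tested, 3 higher (0.658%) and 1 lower in replicate 1.

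With 1 library on each side, the spread of a given gene between pools could not be estimated, and neither test measures it. Mir802 was higher in replicate 1 by 13.6-fold (exact 95% interval 6.10 to 37.8), a log2 ratio of 3.77. It passed both tests, with a Benjamini-Hochberg adjusted p of 8.78e-20 by the exact binomial test and 3.47e-09 by the edgeR negative binomial exact test. The other 3 genes that passed the edgeR test were Mir205, an epithelial miRNA (log2 ratio 1.35), Mir451a, a red cell miRNA (1.10), and Mir3474 (-4.36). Of the tested genes with counts in both libraries, Mir3474 alone had a log2 ratio larger in size than that of Mir802, from 1 count in replicate 1 and 12 in replicate 2 (exact 95% interval of the log2 ratio -9.78 to -1.60). Mir6986 had 14 counts in replicate 1 and 0 in replicate 2, and Mir8103 had 10 and 0. With the 0 taken as 3 counts in that library, they were 2.72-fold and 1.95-fold higher in replicate 1. These folds leave out the counting error of the 14 and 10 counts and do not order Mir6986 and Mir8103 against Mir802. Among the 68 other genes whose summed count was within 2-fold of the 146 of Mir802, log2 ratios ran between -1.38 and 1.33, with a median size of 0.24.

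Mir122 differed little. Its log2 ratio of replicate 1 over replicate 2 was 0.14 (exact 95% interval 0.13 to 0.14), a 1.10-fold difference. At this depth its p in the exact binomial test was too small to be computed, yet it was not called by the edgeR negative binomial exact test (adjusted p = 1.0). Of 187 genes averaging 100 CPM or more, 111 had a smaller log2 ratio in size than Mir122, and the median size was 0.12.

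The ratio of Mir122 to Mir802 needs no scaling, since both counts come from the same library. It was 7201 (exact 95% interval 6102 to 8561) in replicate 1 and 89148 (40958 to 242923) in replicate 2. The ratios differed 12.4-fold (two-sided Fisher's exact test on the 4 counts, p = 5.49e-19), a test that compares the libraries. With Mir122 left out of the total, Mir802 had 31.0 CPM in replicate 1, against 2.28 CPM in replicate 2. Mir122 held 18.2% of sense counts in replicate 1 and 16.9% in replicate 2, so leaving it out could change that gap little. The ratio and these levels rest on the same Mir802 counts as the tests above and are not separate evidence.

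**Figure D3:**
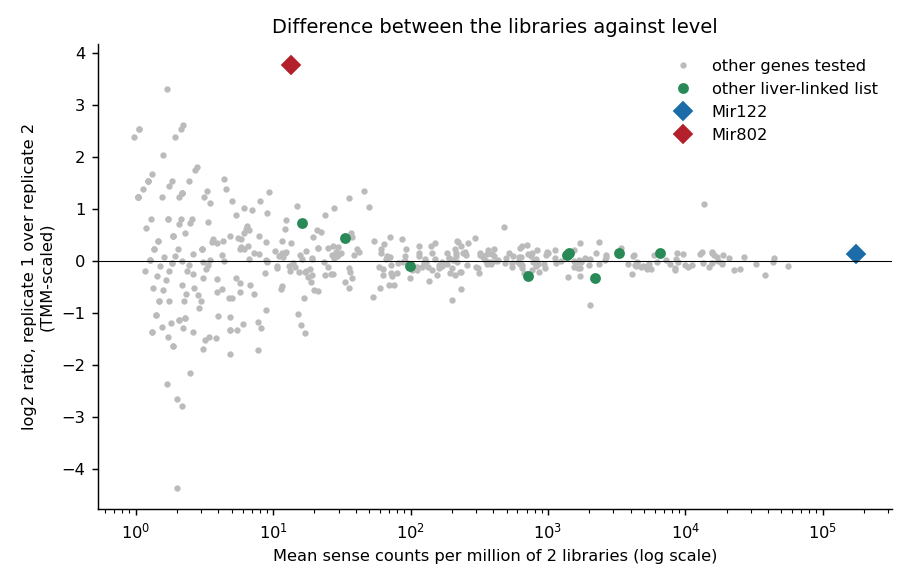
Log2 ratio of replicate 1 over replicate 2 against mean level on a log axis, 1 point per gene tested, with TMM-scaled library sizes. Mir6986 and Mir8103, with 0 counts in replicate 2, have no finite ratio and are not drawn. Mir802 lies at 3.77, far above genes of like level, and Mir122 lies near the line at 0.14.

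Genes next to Mir802 in mean level were close between the libraries, apart from Mir204. Mir204, a miRNA of retina, kidney and endocrine cells, stood just above Mir802 with 20.1 CPM in replicate 1 and 9.78 CPM in replicate 2. Mir18b had 13.7 CPM in replicate 1 and 15.1 CPM in replicate 2. Mir490 had 13.6 and 14.2 CPM. Just below, Mir511, Mir702 and Mir302b had at most 15.0 CPM in replicate 1 and at most 14.2 CPM in replicate 2. Of these 6 neighbours only Mir204 was called by the exact binomial test (log2 ratio 1.06, adjusted p = 0.000688), and not by the edgeR negative binomial exact test (adjusted p = 0.245).

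Genes whose log2 ratio was nearest that of each member were sought, a likeness over only 2 libraries. For Mir122, among 186 other genes of at least 100 CPM, they were Mir324, Mir181a-1 and Mir485, each within 0.00295 of its log2 ratio. For Mir802, among 352 genes with at least 10 counts in both libraries, they were Mir205, Mir153 and Mir92b, with the nearest 2.42 away on the log2 scale. Mir205 had 65.7 CPM in replicate 1 and 26.2 CPM in replicate 2. Mir802, with 6 counts in replicate 2, does not itself meet that minimum, which can also remove other genes with a ratio of that size. Among all 453 other tested genes with counts in both libraries, the nearest was Mir592, with 17 counts in replicate 1 and 1 in replicate 2. Its log2 ratio of 3.31 (exact 95% interval 0.64 to 8.70) was 0.46 from that of Mir802.

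The annotated miRNA genes nearest to the members on their chromosomes gave little. Gm28003 and Gm23062, 297 and 799 kb from Mir802, had 0 counts. Mir694, 970 kb from Mir122, had 0 counts in replicate 1 and 1 in replicate 2, and Mir143, a mesenchymal miRNA, lies 3600 kb away on its other side.

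The other liver-linked genes all lay far below Mir122. Its 9 genes summed to 15966 CPM in replicate 1 and 15525 CPM in replicate 2. Mir122 alone was 11.4 and 10.9 times that sum. Reads that fit both Mir194-1 and Mir194-2 are missing from the sum, which raises these multiples. Mir101b led with 6871 CPM in replicate 1 and 6293 CPM in replicate 2. Mir192, a miRNA of liver and gut, had 3455 CPM in replicate 1 and 3141 CPM in replicate 2. Mir483, in an intron of the fetal growth factor gene Igf2, was lower in replicate 1, with 1928 CPM against 2454 CPM in replicate 2. Mir148a stood at 1486 and 1354 CPM, Mir194-2 at 1430 and 1345 CPM, and Mir455 at 642 and 793 CPM in replicates 1 and 2. The lowest were Mir101a with 94.8 and 102.8 CPM, Mir215 with 38.2 and 28.7 CPM and Mir194-1 with 20.1 and 12.3 CPM. Mir802 was thus near the lowest of them in replicate 1 and below all of them in replicate 2.

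By the exact binomial test 6 of these 9 genes were higher and 2 lower in replicate 1, beside the 38.6% called over all genes, and 0 were called by the edgeR negative binomial exact test, with 0 at an unadjusted p under 0.05. Their log2 ratios ran between -0.32 and 0.73 with a median of 0.15, against a median of 0.03 over all genes tested. The largest, 0.73, belonged to Mir194-1. In the hepatocyte marker list, Mir122, Mir802, Mir192, Mir194-1 and Mir194-2, 5 of 5 were higher in replicate 1 by the exact binomial test, with a median log2 ratio of 0.16, and Mir802 was the 1 called by the edgeR test. The 4 others had 1.66-fold or smaller differences. Over all genes tested, the exact binomial test called 19.7% higher and 18.9% lower in replicate 1. Mir192, Mir194-1 and Mir194-2 are also among the 9 other liver-linked genes, so the lists are not separate. Mir192 and Mir194-2 lie together on chromosome 19 (6264643 to 6264932), and Mir194-1 and Mir215 on chromosome 1 (185313319 to 185313692). The calls within each pair, all higher in replicate 1, may not be independent.

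Markers of other cells and organs are set beside Mir802 because some of them also make it. In the pancreas and gut endocrine list, Mir375, a miRNA of islet and gut endocrine cells, was higher in replicate 1 (log2 ratio 0.35) and was 1 of 5 tested that were called by the exact binomial test, near the 19.7% called higher over all genes. Mir217, Mir216a and Mir216b, miRNAs of pancreatic acinar cells, were at or below 9.15 CPM in both libraries and were not called. The list summed to 2111 CPM in replicate 1 and 1734 CPM in replicate 2, of which Mir375 alone gave 1891 and 1515 CPM. In the kidney list Mir204 was called higher and Mir10a lower (-0.06). The kidney list summed to 5305 CPM in replicate 1 and 5605 CPM in replicate 2, of which Mir10a alone gave 5285 and 5595 CPM. All 6 members of the cholangiocyte and epithelial list were called higher in replicate 1 by the exact binomial test. Over all genes it called 19.7% higher. The 6 log2 ratios ran from 0.12 to 0.39. Mir429, Mir200a and Mir200b lie together on chromosome 4 (156053905 to 156055750), and Mir141 and Mir200c on chromosome 6 (124717914 to 124718390). The calls of such neighbours may not be independent. The edgeR test called 0 of the 6, with 0 at an unadjusted p under 0.05. The 6 genes summed to 20761 CPM in replicate 1 and 18949 CPM in replicate 2. Mir30a, the leading gene, gave 16709 and 15683 CPM of these sums. No member of these lists was as far apart as Mir802, and their part in its difference was not tested.

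Lists of blood, vessel and other tissue gave these calls by the exact binomial test, which over all genes called 19.7% higher and 18.9% lower in replicate 1. The edgeR test called Mir451a and no other member of these lists. The erythroid list, 3 of 5 genes measured, summed to 27150 CPM in replicate 1 and 18579 CPM in replicate 2, with Mir451a higher and Mir144 and Mir486 lower in replicate 1. Mir122 was therefore 6.72 times the erythroid sum in replicate 1 and 9.08 times in replicate 2. The leukocyte list, led by Mir223, had 3 of 5 tested higher, and the progenitor list, led by Mir130a, had 0 of 6 called by the exact binomial test and 0 by the edgeR test, with 0 and 0 at an unadjusted p under 0.05. Mir126a, the 1 endothelial gene measured, was higher (0.07). The mesenchymal list, led by Mir143, had 2 higher and 2 lower of 6 tested. In the skeletal muscle list Mir206 and Mir133b were lower in replicate 1 (-0.85 and -1.38). In the neural list Mir137 alone of 3 tested was called, higher at 1.03 (edgeR adjusted p = 0.130). Mir128-1 led that list in level, and Mir9-2 and Mir124a-1 were at 0. Reads mapping to several places were left out, which lowers genes with shared mature sequences. A count of 0 therefore does not show that the miRNA was absent.

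**Figure D4:**
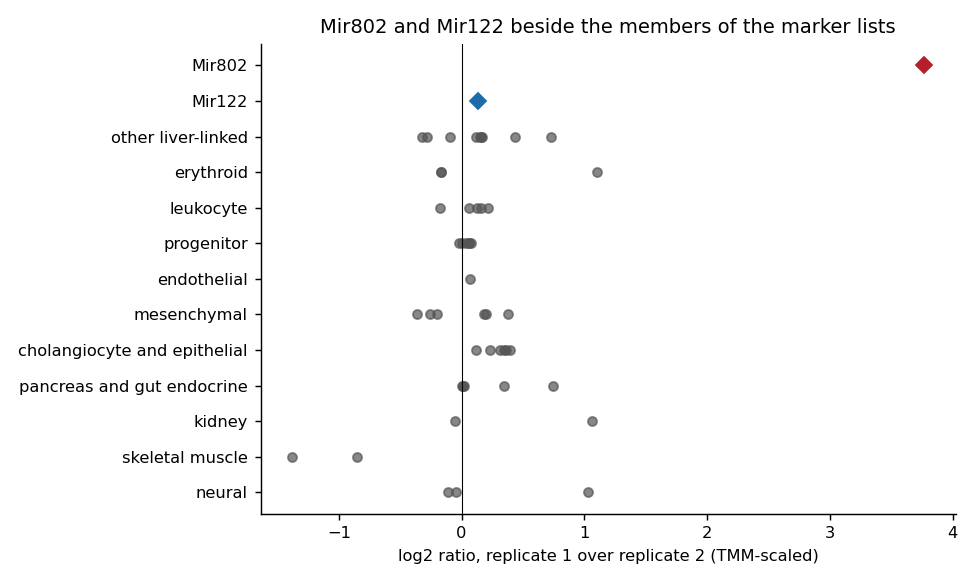
Log2 ratio of replicate 1 over replicate 2 for Mir802, Mir122 and each tested member of the lists, 1 row per list. The hepatocyte list has no row of its own, and its members other than Mir122 and Mir802 are in the other liver-linked row. Mir802 at 3.77 lies to the right of every list member. The furthest right of these are Mir451a at 1.10 and Mir204 at 1.06, and the furthest left is Mir133b at -1.38.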

How the data were processed

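The deposited files are whole-number read counts per miRNA gene, 1 table per library, which the authors made on mm10 with annotation release M4 per the text deposited beside them. For the aligner, the counting program and the trimming no source used here gives a name. The deposited counts are given for both strands, the gene's own strand and the opposite strand, and sense counts were used. Reads assigned to no gene, 58.7% of reads in each library, stayed out of all totals. They include reads mapping to several places (29.3% in replicate 1 and 31.1% in replicate 2), which lowers genes with shared mature sequences. Symbols came from GENCODE release M21, which matched 1894 of 1973 identifiers. TMM sizes and the negative binomial exact test (common dispersion, intercept only) came from edgeR 4.0.16, size factors as an alternative from DESeq2 1.42.0, intervals and binomial and Fisher tests from scipy 1.17.1, and the fold from ViennaRNA 2.7.2. The quasi-likelihood test could not be fitted with 1 library on each side. The steps were tested on simulated data. Genes named are the members, the 3 nearest on each side in level, the 3 nearest in log2 ratio, chromosomal neighbours, the other liver-linked list and the leading gene of each marker list; others were named after their values were seen. The members and lists were chosen with earlier results of these data known.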

Additional observations from a re-analysis of the deposited data

How the results depend on the processing

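Mir802 kept its direction and its call under every alternative tried, with log2 ratios between 3.74 (total counts) and 3.78 (unstranded counts). Mir122 kept its direction, at 0.11 by total counts and 0.15 unstranded, but lost its call under the negative binomial exact test, where its log2 ratio of 0.14 had an adjusted p of 1.0. That test was chosen after seeing the data, and it moved the number of genes called to 4, of 456 tested, from 176, with 44 at an unadjusted p under 0.05. It adds to counting error a spread between libraries that is shared by all genes and estimated from these same libraries. The level of Mir122 moved to 159850 CPM with unstranded counts, and to the same 159850 CPM with opposite-strand counts in the denominator only, because the totals grow. Leaving out each replicate in turn put Mir122 between 168741 and 182337 CPM, Mir802 between 1.89 and 25.3 CPM, the rank of Mir802 between 241 and 390, and the ratio of Mir122 to Mir802 between 7201 and 89148. Higher and lower calls were 90 and 86 with TMM and 80 and 97 by total counts. No paired analysis was possible because the labels give 1 group. In replicate 2 the 6 counts of Mir802 limit the precision of its fold.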
